A study of Homo sapiens with 6 samples.

Results

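The ribosomal S6 kinase family is a group of serine/threonine kinases that act near the end of growth factor signaling. The 8 genes of the family were taken by symbol from the 57773 genes of the deposited count table, and all 8 were among the 16290 genes with enough counts to be tested. They were RPS6KA1, RPS6KA2, RPS6KA3 and RPS6KA6, which encode the p90 ribosomal S6 kinases RSK1, RSK3, RSK2 and RSK4, RPS6KA5 and RPS6KA4, which encode the mitogen- and stress-activated kinases MSK1 and MSK2, and RPS6KB1 and RPS6KB2, which encode the p70 ribosomal S6 kinases S6K1 and S6K2. The members were chosen by name, with their fold changes in this same contrast known, so every fold change and false discovery rate (FDR) of a member is given here as a description.

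RSKs are switched on by ERK at the end of the RAS, RAF and MEK cascade, and by the kinase PDPK1. MSKs sit in the nucleus and are switched on by ERK or by p38, and they phosphorylate CREB and histone H3. S6Ks are switched on by mTORC1 and PDPK1, and they phosphorylate ribosomal protein S6 and several regulators of translation. The kinases are regulated mainly by phosphorylation, which RNA sequencing does not measure, so the values here are transcript levels and not kinase activity.

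SW872 is an established human liposarcoma cell line. Apatinib is a small-molecule inhibitor of receptor tyrosine kinases, known chiefly for its action on VEGFR2. The RNA came from 3 cultures given Apatinib at 18 µM for 24 h (Apatinib 1 to 3) and from 3 controls (control 1 to 3). All were grown in the same serum-containing medium, and the comparison addressed which transcripts differ after the drug. Whether the controls were given vehicle is not stated in the sources used here. The methods of the study call the samples of a group biological replicates, and the labels do not say how they were separated.

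The libraries held between 17043314 and 22067558 counts. All 8 mesenchymal and liposarcoma markers had a mean level over 1 FPKM (fragments per kilobase of transcript, scaled to library depth), with a sum of 993 to 1116 in the controls and 1123 to 1395 after Apatinib. None of the 4 epithelial markers reached that level. Of 7 adipocyte markers 2 did, PPARG at 19.7 to 27.1 FPKM and LPL, which was higher after Apatinib (log2 fold change 0.84, edgeR quasi-likelihood FDR 0.0238), while FABP4 and ADIPOQ had 0 counts and 0 FPKM in every library. The adipocyte list summed to 21.9 to 24.4 FPKM in the controls and 23.1 to 32.3 FPKM after Apatinib. Of the 4 endothelial markers found, TEK alone was over 1 FPKM, and the scarce VWF was higher (1.52) and CDH5 lower (-1.22). The immune marker CD68 had at most 1 count but 6.78 to 11.8 FPKM after Apatinib and 1.79 to 3.30 in the controls. The adipocyte marker CEBPA was listed at 0.0579 to 0.319 FPKM with 0 counts. The deposited counts and FPKM thus disagree for some genes, and the cause was not tested. The 7 proliferation markers summed to 621 to 690 FPKM in the controls and 275 to 515 FPKM after Apatinib, and 4 of them were lower by the criteria used below. The part of these differences in the results below was not tested. Controls 1 and 2 resembled each other more than other same-group libraries did, with a mean chi-square of 2.27 per gene against 18.2 to 44.5. Differences that lean on them are therefore also given with both summed as 1 sample.

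In control cells, the RNA of all 8 kinases was present, at widely different levels. On the FPKM scale, which is per length, the order of mean levels was RPS6KA3 (23.1 ± 2.45, SD, n = 3), RPS6KA4 (18.9 ± 0.606), RPS6KA1 (15.6 ± 1.07), RPS6KB2 (14.4 ± 2.20), RPS6KB1 (10.0 ± 2.10), RPS6KA5 (5.88 ± 0.989), RPS6KA6 (2.75 ± 0.126) and RPS6KA2 (1.86 ± 0.0918). Only RPS6KA1 and RPS6KB2 were neighbours whose control libraries overlapped. After Apatinib the order became RPS6KA4 (22.7 ± 2.29), RPS6KA3 (16.9 ± 2.76), RPS6KA1 (14.8 ± 2.11), RPS6KB2 (14.3 ± 1.01), RPS6KA2 (5.49 ± 1.04), RPS6KB1 (5.28 ± 0.774), RPS6KA5 (4.32 ± 0.652) and RPS6KA6 (2.34 ± 0.427). RPS6KA2 moved from the lowest place to one above RPS6KB1, and RPS6KB1 dropped from a level clear of RPS6KA5 to one that overlapped it. In this second order, RPS6KA3, RPS6KA1 and RPS6KB2 overlapped from neighbour to neighbour, as did RPS6KA2, RPS6KB1 and RPS6KA5.

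The order rests on the lengths behind the FPKM, which are not given in the sources used here. The ratio of CPM to FPKM implied a mean length of 1.61 kb for RPS6KB2 and 6.10 kb for RPS6KB1. Their longest coding transcripts in GENCODE have 1.73 and 5.48 kb. For RPS6KA5 and RPS6KA6 it implied 5.44 and 3.91 kb, against longest coding transcripts of 26.8 and 8.17 kb. For RPS6KA1, RPS6KA2, RPS6KA3 and RPS6KA4 the implied length was above that of the longest coding transcript. RPS6KA3, RPS6KA4 and RPS6KA1 also held ranks 1, 2 and 3 in the controls when CPM were divided by the length of the longest coding transcript or of all exons. RPS6KA2, however, ranked 6 of 8 in the controls by both of these lengths and RPS6KA5 ranked 8, so the lowest place is particular to the FPKM. Divided by all exons, RPS6KB1 ranked 4 and RPS6KB2 ranked 5 in the controls, the reverse of their FPKM order.

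Of the 8 members, 2 met the criteria for a differentially expressed gene (DEG), an absolute log2 fold change above 0.5 and an FDR under 0.05 in edgeR's quasi-likelihood test, adjusted by Benjamini-Hochberg over all genes. RPS6KA2 was higher and RPS6KB1 was lower after Apatinib. Across all genes tested 11.5% were DEGs, with 5.97% higher and 5.48% lower. The same 2 members were the ones whose groups did not overlap in CPM (counts scaled to library depth), against 33.2% of all genes, 17.5% higher and 15.7% lower. The median log2 fold change of the 8 members was -0.15 and that of all genes was 0.0028, with 6 of 8 members and 49.7% of all genes below 0.

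**Figure D1:**
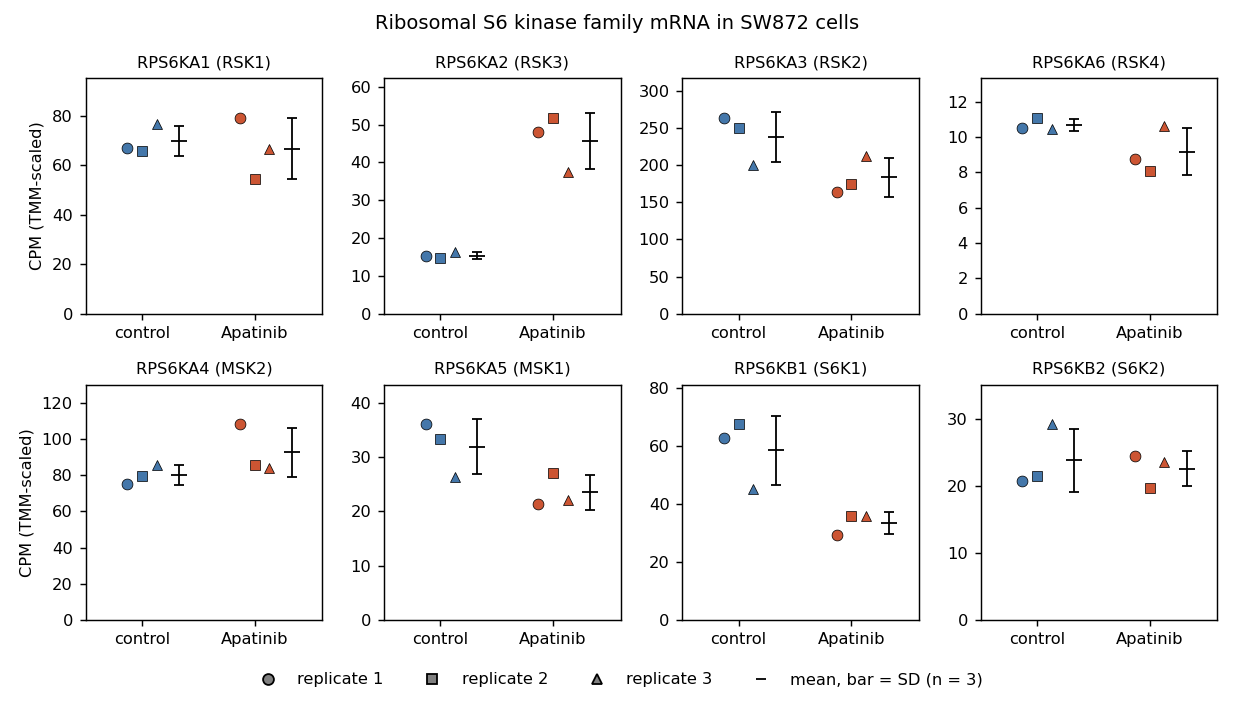
Level of each S6 kinase gene in every library, in CPM on axes that start at 0 and differ between panels, with a point per library (shapes mark the replicate number) and the group mean with its SD beside the points. RPS6KA2 lies at 37.4 to 51.8 CPM after Apatinib and at 14.6 to 16.4 CPM in the controls, and RPS6KB1 lies at 29.1 to 35.8 against 45.0 to 67.5 CPM.

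**Figure D2:**
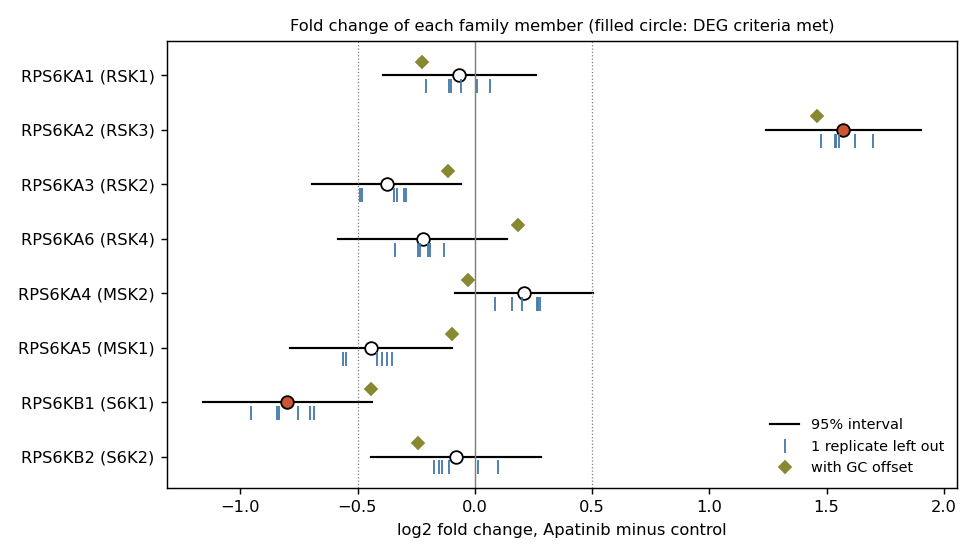
Log2 fold change of each member, Apatinib minus control, with its 95% interval from edgeR's quasi-likelihood fit (circles, filled where the DEG criteria were met). Ticks give the fits with 1 replicate left out, diamonds a fit with an offset for GC content, and dotted lines the fold limit. RPS6KA2 stands at 1.57 and RPS6KB1 at -0.80, and the other members lie between -0.44 and 0.21.

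RPS6KA2 encodes RSK3, an RSK with a nuclear localisation sequence that is well studied in heart muscle. In Apatinib 1 to 3 it had 824, 918 and 654 counts, or 47.9, 51.8 and 37.4 CPM. In controls 1 to 3 it had 262, 266 and 357 counts, or 15.1, 14.6 and 16.4 CPM. The lowest treated library was above the highest control by a wide margin, and the treated libraries differed more among themselves than the controls did. The mean rose from 15.4 ± 0.889 to 45.7 ± 7.44 CPM (SD, n = 3 each). This was a 2.97-fold rise with a 95% interval of 2.36 to 3.74, or 1.57 on the log2 scale with a standard error of 0.152. Its p-value ranked 11 among the 16290 genes (edgeR quasi-likelihood FDR 0.000511) and its fold change ranked 87 from the top. With each library left out in turn, the log2 fold change stayed between 1.48 and 1.70 and the gene met the DEG criteria in 6 of 6 fits, with an FDR of at most 0.00495.

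The deposited FPKM of RPS6KA2 were 5.45, 6.55 and 4.47 after Apatinib and 1.86, 1.76 and 1.95 in the controls. They showed the same separation of the groups. RPS6KA2 lies on chromosome 6 on the minus strand, and its exons overlap those of one other gene, AL159163.1, over 0.728% of their length, while that gene had at most 1 count in any library. The intronic transcript RPS6KA2-IT1 had 0, 4 and 4 counts after Apatinib and 2, 0 and 0 in the controls. The antisense transcript RPS6KA2-AS1 had 0, 0 and 1 counts against 2, 0 and 0. Neither companion had enough counts to be tested, and both were far below the counts of the gene itself.

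RefSeq (GRCh38.p14) places 3 start sites for RPS6KA2, and the counts, which are per gene, do not tell which of them was used. The 250 bases before the middle one are shown because they hold 4 copies of the CCAAT box, a common promoter element, within a window whose GC content is 72.4%. At least 1 copy was found in 32.0% of the 35116 RefSeq promoter windows of this length and at least 4 in 0.874%. The window lies at chr6:166627252-166627501 on the minus strand, and capitals mark CCAAT on the opposite strand (ATTGG).
RPS6KA2 promoter: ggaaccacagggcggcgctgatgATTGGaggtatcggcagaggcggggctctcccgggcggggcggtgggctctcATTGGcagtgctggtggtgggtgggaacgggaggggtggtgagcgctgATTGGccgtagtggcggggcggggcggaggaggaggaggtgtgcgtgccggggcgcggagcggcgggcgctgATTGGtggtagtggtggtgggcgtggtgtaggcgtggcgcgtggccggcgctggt
The boxes lie 227, 175, 127 and 55 bases before the start site, and the other RPS6KA2 windows hold 1 box each. RPS6KA5, which did not pass the test, has a window with 3 copies, a number reached by 2.93% of all windows. The motifs were chosen after the sequences were seen, and a match describes the letters only.

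RPS6KA3 encodes RSK2, the kinase that is lost in Coffin-Lowry syndrome, and was the family member with the most RNA in control cells. It had 164, 175 and 213 CPM in Apatinib 1 to 3 and 264, 250 and 201 CPM in controls 1 to 3. Control 3 lay below Apatinib 3, so the groups overlapped by this pair. The means were 184 ± 25.8 and 238 ± 33.3 CPM, with a log2 difference of -0.38 (95% interval -0.69 to -0.06). The edgeR quasi-likelihood FDR was 0.107, so the gene did not pass. In FPKM, with 14.3, 16.5 and 19.8 against 25.8, 22.5 and 20.9, the groups did not overlap.

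RPS6KA1 encodes RSK1, which shares many of its known substrates with RSK2. It had 79.3, 54.4 and 66.4 CPM after Apatinib and 67.0, 65.6 and 76.9 CPM in the controls. The treated libraries lay on both sides of the controls, also in FPKM, at 16.8, 12.6 and 15.0 against 15.7, 14.5 and 16.6. The log2 difference was -0.07 with a 95% interval of -0.39 to 0.26 and an edgeR quasi-likelihood FDR of 0.803. Leaving out single libraries moved it from -0.21 without Apatinib 1 to 0.06 without Apatinib 2, so its sign rested on single libraries.

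RPS6KA6 encodes RSK4, a less studied RSK that has been described as active without growth factor stimulation. It had the lowest mean FPKM of the family after Apatinib. Its levels were 8.78, 8.07 and 10.6 CPM against 10.5, 11.1 and 10.5 CPM in the controls. In FPKM the values were 2.09, 2.11 and 2.84 against 2.82, 2.83 and 2.61. On both scales Apatinib 3 was level with the controls and the other treated libraries lay below them. The log2 difference of -0.22 (standard error 0.165) did not pass the edgeR quasi-likelihood test, with an FDR of 0.390. With an offset for GC content, described below, it was 0.18, so its direction is not given.

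Together the RSK genes held 43.3 ± 2.46 FPKM in the controls and 39.5 ± 2.29 FPKM after Apatinib, and these sums overlapped. The mix within them differed. RPS6KA2 made up 4.04% to 4.62% of RSK FPKM in the controls and 10.6% to 17.3% after Apatinib. There were 13.8, 12.8 and 10.8 units of RPS6KA3 per unit of RPS6KA2 in controls 1 to 3, and 2.63, 2.52 and 4.43 in Apatinib 1 to 3. RPS6KA3 remained the more abundant in every library.

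RPS6KA4 encodes MSK2 and had the highest mean FPKM of the family after Apatinib, while RPS6KA3 had more counts in every library. Its levels were 109, 85.6 and 84.0 CPM against 74.9, 79.6 and 85.8 CPM in the controls. Apatinib 1 stood above all other libraries, while control 3 lay above Apatinib 2 and 3. The log2 difference was 0.21 (standard error 0.134), with an edgeR quasi-likelihood FDR of 0.314. In FPKM the values were 25.1, 22.3 and 20.5 against 18.2, 19.3 and 19.1, without overlap, but with the GC offset the log2 difference was -0.03, so no direction is given.

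RPS6KA5 encodes MSK1, the closest relative of MSK2. It had 21.3, 27.1 and 22 CPM after Apatinib and 36.1, 33.3 and 26.4 CPM in the controls. The groups overlapped only through Apatinib 2 and control 3, as they did in FPKM, at 4.01, 5.07 and 3.87 against 6.87, 5.89 and 4.89. The log2 difference was -0.44 (95% interval -0.79 to -0.10) and the edgeR quasi-likelihood FDR was 0.0856. Without control 3 the difference was -0.56 with an FDR of 0.0298, the only one of its 6 leave-one-out fits in which it met the DEG criteria. The exons of RPS6KA5 share 1.09% of their length with those of DGLUCY on the opposite strand, which had 866 to 1245 counts.

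The ratio of RPS6KA4 to RPS6KA5 in FPKM was 2.65, 3.28 and 3.91 in the controls and 6.26, 4.40 and 5.30 after Apatinib. All treated libraries lay above all controls. The summed MSK share of the family FPKM was 26.8 ± 0.792% in the controls and 31.4 ± 2.81% after Apatinib (SD, n = 3). Neither value is corrected for GC content, which is 64.7% in RPS6KA4 and 38.3% in RPS6KA5. With the GC offset the log2 differences were -0.03 for RPS6KA4 and -0.10 for RPS6KA5, so the gap between the 2 genes rests on the uncorrected values.

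RPS6KB1 encodes S6K1, the main kinase of ribosomal protein S6 under mTORC1. It had 501, 631 and 625 counts in Apatinib 1 to 3, or 29.1, 35.6 and 35.8 CPM. In controls 1 to 3 it had 1082, 1228 and 983 counts, or 62.5, 67.5 and 45.0 CPM. Every treated library was below every control, and control 3 was the control nearest to the treated libraries. The mean fell from 58.3 ± 11.8 to 33.5 ± 3.79 CPM, a log2 difference of -0.80 (standard error 0.165, 95% interval -1.16 to -0.44), with a level in the controls 1.74 times that after Apatinib. The edgeR quasi-likelihood FDR was 0.0140. The FPKM, 4.40, 5.85 and 5.59 against 11.2, 11.3 and 7.60, also did not overlap.

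The call for RPS6KB1 was less firm than that for RPS6KA2. It held in 4 of 6 leave-one-out fits and was lost without control 1 (log2 difference -0.75, FDR 0.0754) and without control 2 (-0.68, FDR 0.0814). With controls 1 and 2 summed the difference was -0.72 (edgeR quasi-likelihood FDR 0.0773), and with the GC offset it was -0.44 (FDR 0.0153), past the FDR limit but short of the fold limit. RPS6KB1 also shares 7.56% of its 50-base sequences with other genes, chiefly the pseudogenes AC053481.3 and AC087499.2, so reads from those stretches cannot be assigned with certainty. The part of such reads in the result was not tested.

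RPS6KB1 lies on chromosome 17 on the plus strand. The 250 bases before its RefSeq start site, at chr17:59892871-59893120 (GRCh38.p14), are shown for contrast with RPS6KA2, the other member that met the criteria. They hold no CCAAT box and 3 copies of TGCGCATG, the repeated core of the site bound by the factor NRF1, counted on both strands and marked in capitals.
RPS6KB1 promoter: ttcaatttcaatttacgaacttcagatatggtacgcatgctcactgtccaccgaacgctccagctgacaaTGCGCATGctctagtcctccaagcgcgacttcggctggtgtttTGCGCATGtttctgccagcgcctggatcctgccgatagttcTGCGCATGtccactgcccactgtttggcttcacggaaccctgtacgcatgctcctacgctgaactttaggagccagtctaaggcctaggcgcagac
The copies lie 180, 137 and 96 bases before the start site. At least 1 copy was found in 1.81% of all windows and at least 3 in 0.0456%. The 13 windows of the 8 members held none of the cAMP response element TGACGTCA, the forkhead core GTAAACA or the E-box CACGTG, which occurred in 1.65%, 2.98% and 6.34% of all windows. The AP-1 site TGANTCA was found once among the members, 82 bases before the start of RPS6KA4, and in 6.57% of all windows. The absence of a match says only that these letters are not in the windows.

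RPS6KB2 encodes S6K2, the second S6K. It had 24.5, 19.6 and 23.6 CPM after Apatinib and 20.7, 21.5 and 29.3 CPM in the controls. In FPKM it had 15.0, 13.1 and 14.6 against 13.3, 13 and 17. Control 3 was the highest library on both scales, and control 1 lay among the treated ones. The log2 difference was -0.08 (standard error 0.166), with an edgeR quasi-likelihood FDR of 0.785. It ranged from -0.18 to 0.10 with single libraries left out. Its annotated antisense transcript RPS6KB2-AS1 had 0 counts in every library.

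The ratio of RPS6KB2 to RPS6KB1 in FPKM was 1.19, 1.15 and 2.23 in controls 1 to 3 and 3.41, 2.24 and 2.62 in Apatinib 1 to 3. Control 3 came close to Apatinib 2 without reaching it. In counts RPS6KB1 exceeded RPS6KB2 in every library, and the ratios above 1 rest on the shorter length behind the FPKM of RPS6KB2. The S6K genes together held 24.4 ± 0.144 FPKM in the controls and 19.5 ± 0.652 FPKM after Apatinib (SD, n = 3), and their share of the family lay below the control range in every treated library, at 22.7 ± 0.553% against 26.5 ± 0.756%. Neither the ratio nor the share is corrected for GC content. With the GC offset the log2 differences were -0.44 for RPS6KB1 and -0.24 for RPS6KB2, closer to each other than without it (-0.80 and -0.08).

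**Figure D3:**
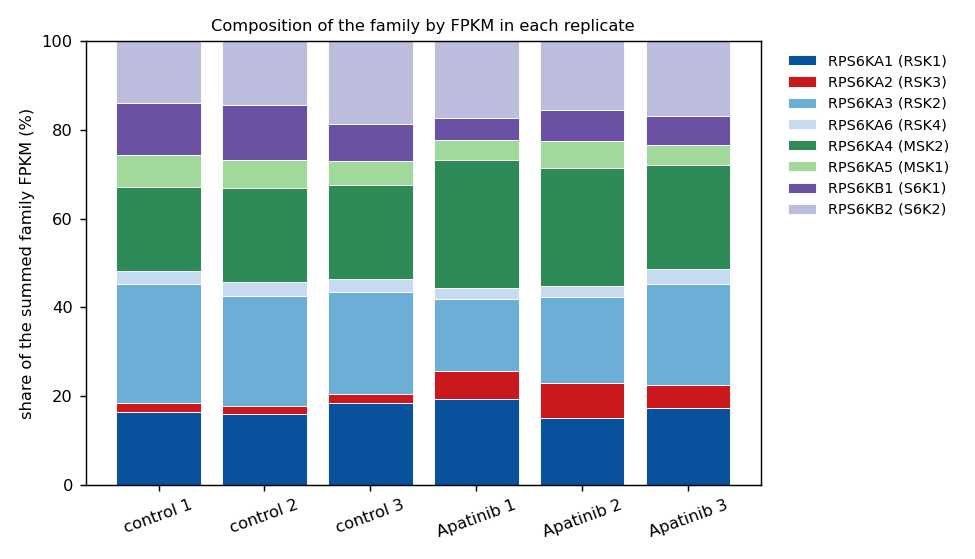
Share of each member in the summed FPKM of the family, in percent, with a stacked bar per library. The share of RPS6KA2 is 5.15% to 7.79% after Apatinib and 1.93% to 2.15% in the controls, and that of RPS6KB1 is 5.04% to 6.96% against 8.39% to 12.4%.

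The summed FPKM of the whole family was 87.2, 84.1 and 86.8 in Apatinib 1 to 3 and 95.7, 91.1 and 90.7 in the controls. The means of 86.0 ± 1.69 and 92.5 ± 2.77 came from sums that did not overlap between the groups. RPS6KA4 held the largest share after Apatinib, at 26.3 ± 2.56%, against 20.4 ± 1.23% in the controls, where RPS6KA3 held the largest. These shares are in FPKM without correction for GC content, and with the GC offset the log2 differences of RPS6KA4 and RPS6KA3 were -0.03 and -0.12. Amounts per cell were not measured, so fewer cells with a transcript and less transcript per cell cannot be told apart.

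The fold changes of all genes moved with the GC content of their transcripts. When the tested genes were split into 5 equal groups by GC content, the median log2 fold change was -0.32 in the lowest (26.5% to 41.1% GC) and 0.18 in the highest (58.1% to 83.9% GC). The lowest group held 38 higher and 550 lower DEGs, and the highest 382 higher and 20 lower. RPS6KA3 (40.0% GC), RPS6KA5 (38.3%), RPS6KB1 (38.2%) and RPS6KA6 (34.4%) belonged to the lowest group, and RPS6KA4 (64.7%) to the highest. RPS6KA1 (56.9%), RPS6KA2 (54.2%) and RPS6KB2 (57.9%) lay in the fourth group, whose median was 0.12. The GC content is that of the longest annotated transcript, which for RPS6KB2 retains an intron.

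**Figure D4:**
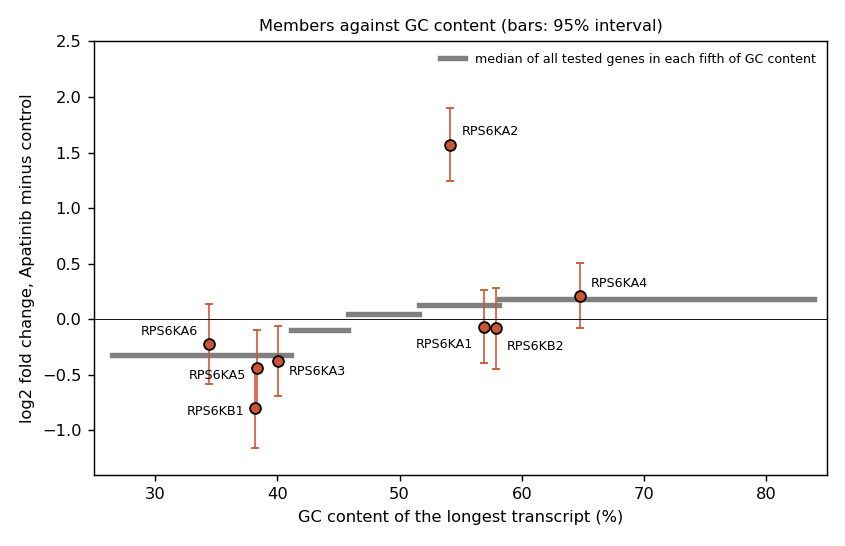
Log2 fold change of each member, Apatinib minus control, against the GC content of its longest annotated transcript, with 95% intervals. Grey lines give the median of all tested genes in each of 5 equal groups by GC content, from -0.32 to 0.18. RPS6KA2 lies at 1.57 where the median is 0.12, and RPS6KB1 at -0.80 where it is -0.32.

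A fit with a smooth function of GC content as an offset in each library was added after seeing the data. RPS6KA2 was the only member that met the DEG criteria in this fit, against 8.67% of all genes. Its log2 fold change was 1.46 (edgeR quasi-likelihood FDR 0.000471). RPS6KA3 moved to -0.12 and RPS6KA5 to -0.10, while RPS6KA1 and RPS6KB2 moved away from 0, to -0.23 and -0.24. The cause of the relation with GC content was not tested.

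The genes that feed into the kinases were then read from the same fit. None of the 11 genes of the ERK input, the 6 of the p38 input, the 10 of the mTORC1 input or the 6 phosphatases and binding proteins met the DEG criteria, against 11.5% of all genes. Their median log2 fold changes were -0.04, 0.11, 0.03 and -0.06. With the GC offset they were -0.05, 0.029, -0.135 and -0.04, so no direction is given for the mTORC1 input. Of the genes named below, DEPTOR met the criteria in 4 alternatives that kept all samples and MAP2K6 in 1. NRAS met them without Apatinib 3 (-0.55, FDR 0.0357) and without control 3 (-0.50, FDR 0.0363). The ERK input then held 1 and 2 lower DEGs, or 9.09% and 18.2%, against 12.1% and 15.5% of all genes. With the GC offset no gene of the ERK input met the criteria. Among ERK inputs, the RAS gene NRAS stood at -0.42 (edgeR quasi-likelihood FDR 0.0659) and the MEK gene MAP2K2 at 0.32 (FDR 0.156).

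For the p38 input the smallest p-values were those of the kinase genes MAP2K3 (0.34), MAP2K6 (0.36) and MAPK11 (-0.09), with edgeR quasi-likelihood FDR of 0.114, 0.214 and 0.650. DEPTOR, an inhibitory subunit of the mTOR complexes, had 3.32 ± 0.512 CPM in the controls and 6.06 ± 2.13 CPM after Apatinib (0.87, FDR 0.0504), just outside the limit. It met the criteria in DESeq2 (FDR 0.0306), without a filter on low counts (FDR 0.0038), with the replicate block (FDR 0.0194) and with the GC offset (FDR 0.0442), and MAP2K6 met them with the GC offset (0.67, FDR 0.0479). TBC1D7, a subunit of the TSC complex, stood at 0.29 (FDR 0.165) and AKT1S1, which encodes the mTORC1 inhibitor PRAS40, at -0.20 (FDR 0.380). PEA15, a protein that binds ERK and RSK2, stood at 0.35 (FDR 0.0992), and the phosphatase genes PHLPP2 and PPP2CB at -0.24 (FDR 0.248) and 0.17 (FDR 0.354).

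Of 24 genes whose proteins are described as RSK substrates, 4 rose and none fell by the DEG criteria, or 16.7% against 11.5% of all genes, and their median log2 fold change was 0.16. FOS, a subunit of AP-1, rose from 1.89 ± 0.246 to 18.2 ± 7.53 CPM, with 240, 242 and 469 counts in Apatinib 1 to 3 against 28, 38 and 43 in the controls. Its log2 fold change was 3.25 (standard error 0.292, edgeR quasi-likelihood FDR 0.000315), and it met the criteria in 6 of 6 leave-one-out fits. DAPK1, a kinase linked to cell death, rose from 28.1 ± 0.712 to 47.9 ± 7.79 CPM (0.77, FDR 0.00971).

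NR4A1, an orphan nuclear receptor, rose from 3.41 ± 0.368 to 6.69 ± 1.10 CPM (0.97, FDR 0.0152). FLNA, the actin crosslinker filamin A, rose from 3217 ± 301 to 4729 ± 491 CPM (0.56, edgeR quasi-likelihood FDR 0.0250). The treated and control libraries of these 4 genes did not overlap in CPM. Without control 1 the FDR was 0.0548 for DAPK1, 0.0760 for NR4A1 and 0.137 for FLNA, and without control 2 it was 0.0584, 0.0901 and 0.139. With controls 1 and 2 summed it was 0.0544, 0.0734 and 0.134, and 0.0021 for FOS. Without Apatinib 1 it was 0.0513 for NR4A1 and 0.0589 for FLNA. The GC offset ended the call of FLNA (0.36, FDR 0.0594), and limma on log2(FPKM + 1) and log2(FPKM + 0.1) ended that of DAPK1 (FDR 0.0625 and 0.0605).

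Of 7 genes of MSK substrates none met the criteria, against 11.5% of all genes, and their median log2 fold change was -0.28. Without Apatinib 2 and without control 3, 1 gene fell in each fit, or 14.3% against 8.91% and 15.5% of all genes. Those with the smallest p-values were the nucleosome-binding HMGN1 (-0.28, edgeR quasi-likelihood FDR 0.143) and the transcription factors ETV1 (-0.41, FDR 0.145) and CREB1 (-0.43, FDR 0.178). With the GC offset HMGN1 was at 0.054 and CREB1 at 0.0098, so no direction is given for them, and the median of the list was 0.0098. The 10 early genes linked to CREB had a median of 0.77, which rested on Apatinib 2 and was 0.095 without it. Below 0 there was 1 gene, or 2 without Apatinib 2, against 49.7% of all genes. FOS and NR4A1 were the 2 that met the criteria, or 20% against 11.5%, and the count was 6 without a filter on low counts, 4 with the replicate block and 1 to 3 with single libraries left out. DUSP1, a phosphatase of MAP kinases, had 6.0 ± 0.852 CPM in the controls and 9.01 ± 0.591 CPM after Apatinib (0.58, FDR 0.0511). EGR1 and ATF3, named here after their values were seen, had positive differences with Apatinib 2 as the only high library. EGR1 had 396, 3146 and 457 counts after Apatinib against 406, 529 and 433, and ATF3 had 90, 427 and 61 against 88, 108 and 103.

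Of 15 genes of S6K substrates, 1 fell and none rose by the DEG criteria, or 6.67% against 11.5% of all genes, with a median log2 fold change of -0.09. RICTOR, the defining subunit of mTORC2, fell from 127 ± 37.8 to 75.3 ± 15.0 CPM (-0.75, standard error 0.218, edgeR quasi-likelihood FDR 0.0442). Its libraries overlapped through Apatinib 3, at 1546 counts, and control 3, at 1817 counts from a deeper library, and the call held in 2 of 6 leave-one-out fits. With controls 1 and 2 summed the difference was -0.63 (FDR 0.176), with the GC offset -0.33 (FDR 0.0891) and in limma on log2(FPKM + 1) -0.65 (FDR 0.133), so the call was lost in each. NCBP1, the larger subunit of the nuclear cap-binding complex, had 151 ± 8.90 CPM in the controls and 108 ± 11.4 CPM after Apatinib, with an FDR of 0.0289 and a difference of -0.48 that missed the fold limit. CCT2, a subunit of a cytosolic chaperonin, had 215 ± 1.12 against 173 ± 3.11 CPM (-0.31, FDR 0.0760).

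**Figure D5:**
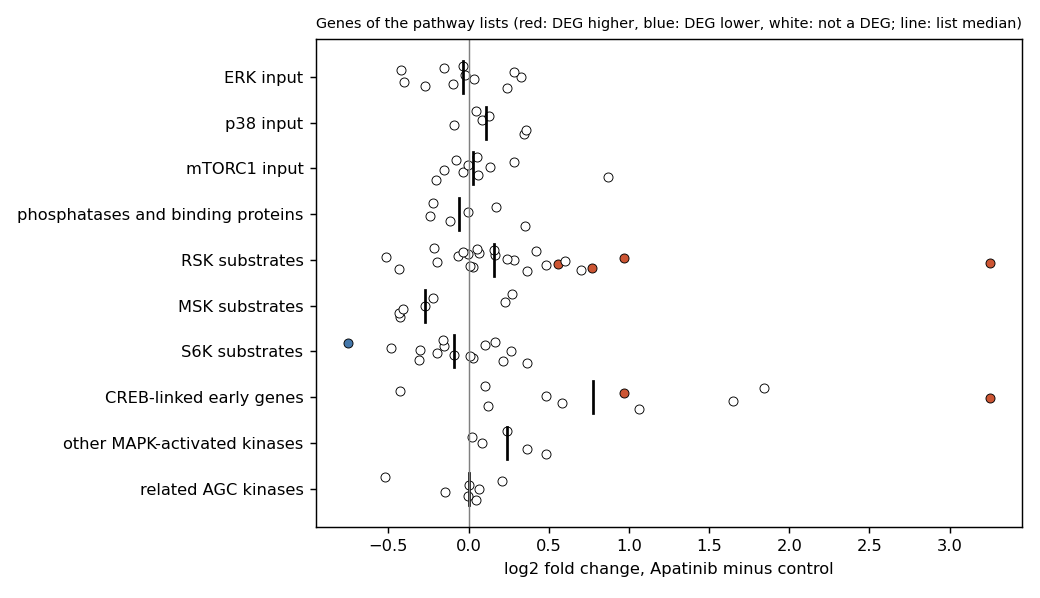
Log2 fold change, Apatinib minus control, of each tested gene in 10 lists around the S6 kinases, with a point per gene (red for higher DEGs, blue for lower DEGs, white for the rest) and a line at each list's median. FOS lies at 3.25, most genes of the input lists lie near 0, and the medians run from -0.28 for MSK substrates to 0.77 for early genes linked to CREB, which was 0.095 without Apatinib 2.

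Over all lists, counting each gene once, 90 of 91 genes were tested, 4 rose and 1 fell, or 5.56% against 11.5% of all genes tested. In DESeq2 the lists held 9.89% DEGs, against 6.30% of all genes with a count and 12.6% of the 16290 genes above. Without a filter on low counts they held 13.2%, against 7.85% and 15.2%, so whether the lists lie below or above all genes depends on the genes they are set against. As the plot of the lists shows, most genes of every list did not meet the criteria, and FOS lay farthest from 0.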

How the data were processed

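RNA from SW872 cells was sequenced in 3 Apatinib and 3 control samples. Reads were handled with CASAVA and aligned to hg19 with STAR 2.7.1a, per the submitters' processing notes. The deposited values are whole-number gene counts and FPKM that the authors computed per library. The counting program, annotation and strand setting are not given in the sources used here. Of the FPKM columns, 1 inside another library's table held the values of control 3 in all but 8 genes, none a member (tolerance 1e-06), and was not used.

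Counts were tested in R 4.3.3 with edgeR 4.0.16 (TMM, low-count filter, quasi-likelihood test, group only, Benjamini-Hochberg over 16290 genes), and standard errors were derived from the test statistic. The authors used DESeq2, which is an alternative here (DESeq2 1.42.0, beside limma 3.58.1 on FPKM with a pseudocount of 1 or 0.1, other filters, size factors, a replicate block, leaving out samples, summing controls 1 and 2 and a GC offset). CPM carry TMM factors, and levels of different genes were compared in FPKM, with CPM per kilobase of annotated length as an alternative chosen after seeing the data. Depth was 17043314 to 22067558 counts, with a biological coefficient of variation of 0.149. Scripts were tested on simulated data. GENCODE 29 and RefSeq (GRCh38) gave overlaps, GC content and promoters, and no coordinates were converted.

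Members and lists were chosen with earlier results of these data known. Named genes were all members, every list gene that met the DEG criteria, the 3 list genes with the smallest p-values, the 3 genes most correlated with the most abundant member of each subfamily, and companion transcripts. Some list genes that this rule names are not reported here.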

Additional observations from a re-analysis of the deposited data

How the results depend on the processing

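Of the 8 members, 2 met the DEG criteria. This count was 0 in limma on log2(FPKM + 1) without a filter and 1 with controls 1 and 2 summed. It was 1 with the GC offset (chosen after seeing the data) and 2 in the other alternatives that kept all samples. The shares of all genes were 0.0266% in limma without a filter, 1.75% with the summed controls and 8.67% with the GC offset. In the same order, RPS6KB1 was -0.80 (FDR 0.139), -0.72 and -0.44, and RPS6KA2 in limma without a filter was 1.17 (FDR 0.0750). The GC offset turned RPS6KA6 to 0.18, RPS6KA4 to -0.027, HMGN1 to 0.054 and CREB1 to 0.0098. It took RICTOR (-0.33, FDR 0.0891) and FLNA (0.36, FDR 0.0594) off the DEG list. It put DEPTOR (0.87, FDR 0.0442) and MAP2K6 (0.67, FDR 0.0479) on that list. With this offset the pathway lists held 6 DEGs, or 6.67% against 8.67% of all genes. The 1866 DEGs among all genes (973 higher) became 796 and 810 (556 and 578 higher) in limma on log2(FPKM + 1) and log2(FPKM + 0.1), 9 in limma without a filter and 292 with controls 1 and 2 summed. The 5 DEGs of the pathway lists (5.56%, against 11.5% of all genes) became 9 in DESeq2 (9.89% against 6.30%), 12 without a filter on low counts (13.2% against 7.85%), 3 and 3 in limma with the pseudocounts 1 and 0.1, 0 in limma without a filter and 1 with controls 1 and 2 summed. The cause of these moves was not tested.

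Leaving out each sample in turn gave 275 (1.65%, without control 1) to 2594 (15.5%, without control 3) DEGs among all genes. The counts were 1 to 3 among the members and 1 to 13 in the pathway lists. The member log2 fold changes ranged from -0.21 to 0.065 for RPS6KA1 (0.065 without Apatinib 2, 0.011 without control 3), 1.48 to 1.70 for RPS6KA2, -0.49 to -0.30 for RPS6KA3, 0.08 to 0.28 for RPS6KA4, -0.56 to -0.35 for RPS6KA5, -0.34 to -0.13 for RPS6KA6, -0.95 to -0.68 for RPS6KB1 and -0.18 to 0.10 for RPS6KB2 (0.014 without Apatinib 2, 0.099 without control 3).

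The replicate block gave 2215 DEGs among all genes (13.6%), 2 among the members and 10 in the pathway lists (11.1%). The deviations of same-numbered samples correlated at -0.26, 0.08 and -0.22, and no sample correlated best with its own number. Each deviation is from a mean of 3 samples, so these values cannot tell whether the samples were paired.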

Other observations

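Other kinases close to the family were also read from the edgeR fit. The 5 other MAPK-activated kinase genes had a median log2 fold change of 0.24, or 0.10 with the GC offset. None of them lay below 0, against 49.7% of all genes, though 1 did without control 2. None met the DEG criteria, against 11.5%. MAPKAPK2, which encodes the p38-activated kinase MK2, had 82.0 ± 5.92 CPM in the controls and 114 ± 14.2 CPM after Apatinib, and its difference of 0.48 (edgeR quasi-likelihood FDR 0.0342) missed the fold limit. It met the criteria in 3 of 6 leave-one-out fits, without Apatinib 2 (0.52), Apatinib 3 (0.55) or control 3 (0.54). MAPKAPK3 stood at 0.36 (FDR 0.0865) and MKNK2 at 0.24 (FDR 0.214). Of the 8 related AGC kinase genes 7 were tested, none met the criteria and the median was 0.0014. Among them SGK1 stood at 0.21 (FDR 0.222) and SGK3 at -0.52 (FDR 0.332).

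The genes whose log2 CPM ran closest to that of RPS6KA3 over the 6 libraries were CD58, TTC21B and VTA1, with Pearson r of 0.998, 0.998 and 0.996. For RPS6KA4 they were MED9, KIF3C and PHLDA2 (0.997, 0.997 and 0.996), and for RPS6KB2 C1orf159, BAP1 and CAPN15 (0.986, 0.983 and 0.975). These values describe 6 libraries in 2 groups that share depth and GC composition, and they are the highest of all genes tested.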
